A study of Homo sapiens with 6 samples.

Results

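The genes described here act in G2 and mitosis, and were taken from a list of 30 genes of that stage of the cell cycle. A gene was included when a probe set of the array carried exactly 1 annotated gene symbol, equal to the gene, and a gene with more than 1 such probe set was represented by the one with the highest mean value. By this rule 27 of the 30 genes were measured, among 13139 genes and 19458 probe sets in all. The other 3, the spindle checkpoint kinase gene BUB1B and the kinesin genes KIF20A and KIF23, had only probe sets annotated to several genes, and no value is given for them.

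The arrays compared HCT116, a human colon carcinoma cell line, of wild-type genotype (3 arrays) with HCT116 cells described as isogenic and BRCA2-/- (3 arrays). In the knockout both alleles of BRCA2, a gene of DNA double-strand break repair, had been targeted in turn by homologous recombination. Cells of both genotypes were grown without treatment in McCoy's 5A medium with serum. The labels call the arrays technical replicates, although RNA is said to come from 3 frozen samples of each genotype. They speak of more than 1 knockout line without naming the line or culture behind an array. The p-values below therefore measure the spread between arrays, which may be technical, and loss of BRCA2 cannot be told apart from any other difference between the cells. No probe set was annotated to BRCA2, so the genotype labels were not checked here against the targeted gene.

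All values are log2 values as deposited, a difference is knockout minus wild type, and a difference of 1 is a change of 2-fold. Array medians over all probe sets lay between 7.36 and 7.80, with wild-type array 1 (7.71) and knockout array 2 (7.80) the highest of their genotypes. Of the markers of colon epithelium, 8 of 8 were measured, from VIL1 (4.76 to 6.91 over the 6 arrays) to KRT8 (11.98 to 13.11), and their mean was 9.71 to 9.95 in wild type and 10.17 to 10.61 in knockout. Of the markers of leukocytes, endothelium and fibroblasts, 7 of 8 were measured, from DCN (5.125 to 5.985), the lowest by mean, to CD68 (8.22 to 9.21). Their mean was 6.30 to 7.08 in wild type and 6.86 to 7.50 in knockout. Levels of different probe sets cannot be set against each other, so the lists do not show which cell types were present and were read for differences between genotypes only. All 8 epithelial markers and 6 of the 7 others had a positive difference, as had 7184 of all 13139 genes. The median difference was 0.51 over the epithelial markers and 0.50 over the others. The highest were CDH1 at 1.15 and COL1A1 at 1.10. The part of these shifts in the values below was not tested.

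Entry into mitosis is driven by cyclin A and cyclin B bound to the kinase CDK1, which is held inactive by inhibitory phosphorylation until CDC25 phosphatases remove it. PLK1 and the Aurora kinases then direct centrosome maturation, spindle assembly and chromosome alignment, while the spindle checkpoint keeps the ubiquitin ligase APC/C from its activator CDC20 until kinetochores are attached. The genes of this programme are transcribed mainly in late S phase, G2 and M, so their level in a culture follows both the share of cells in that window and the transcript level per cell. In RNA from a whole culture these cannot be told apart.

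Many promoters of this class carry short sequence elements, which are shown here. The cell cycle genes homology region (CHR, TTTGAA) is bound through LIN54 by the MuvB complex, which forms the repressive DREAM complex in resting cells and joins MYBL2 and FOXM1 in dividing cells. CCAAT boxes are bound by the factor NF-Y. RefSeq promoter sequences (build GRCh38.p14, 250 bases before to 50 bases after an annotated start) were matched by symbol for 22 of the 27 measured genes, with 31 entries. The CHR was found on either strand in 14 of 22 genes (63.6%), against 18.2% of all 27305 genes with an entry and 15.2% of all 35116 promoters. A CHR starting within 50 bases of an annotated start was present in 11 of the 22 genes and in 5.77% of all genes. CCAAT was found on either strand in 21 of 22 genes (95.5%), against 39.7% of all genes and 34.6% of all promoters, with CENPE the exception. The variant TTCGAA was found in BUB1 and CDC25B (9.09% of the 22 genes), and in 1.82% of all genes. The elements were not particular to this list. Among measured genes of the 6 lists of related genes described below, 82 had an entry. Of those, 40 had the CHR (48.8%), 48 had CCAAT (58.5%) and 8.54% had the variant. A CHR starting within 50 bases of an annotated start was present in 30 of the 82.

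Promoters follow for CDC25C and ASPM, which had the lowest differences among the genes with an entry, and for CENPA, which had the highest. Each is printed in the direction of transcription, in lower case, with TTTGAA and CCAAT on either strand in capitals (TTCAAA and ATTGG are the same motifs on the opposite strand). None of the marked motifs overlapped another.
CDC25C, chr5:138331755-138332054, minus strand: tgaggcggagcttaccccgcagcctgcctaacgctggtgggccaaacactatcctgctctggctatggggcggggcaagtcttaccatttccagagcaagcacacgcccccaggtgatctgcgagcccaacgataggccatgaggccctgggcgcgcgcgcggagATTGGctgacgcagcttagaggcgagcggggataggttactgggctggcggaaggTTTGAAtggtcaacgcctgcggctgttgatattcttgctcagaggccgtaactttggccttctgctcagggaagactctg
ASPM, chr1:197146620-197146919, minus strand: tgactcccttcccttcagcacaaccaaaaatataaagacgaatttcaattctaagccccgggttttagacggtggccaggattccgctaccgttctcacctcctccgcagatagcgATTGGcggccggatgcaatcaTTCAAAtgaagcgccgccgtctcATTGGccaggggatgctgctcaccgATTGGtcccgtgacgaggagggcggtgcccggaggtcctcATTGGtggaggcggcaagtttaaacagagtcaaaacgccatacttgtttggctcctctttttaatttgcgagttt
CENPA, chr2:26785806-26786105, plus strand: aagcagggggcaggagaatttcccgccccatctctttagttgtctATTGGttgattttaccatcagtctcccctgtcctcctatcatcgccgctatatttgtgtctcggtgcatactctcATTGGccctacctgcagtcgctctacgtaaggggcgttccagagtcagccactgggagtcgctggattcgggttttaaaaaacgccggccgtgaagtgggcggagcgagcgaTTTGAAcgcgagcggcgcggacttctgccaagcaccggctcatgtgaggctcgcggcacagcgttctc
CDC25C had 4 entries in the table, and the one shown has its CHR nearest the start. Its CHR lies at positions -30 to -25 from the first transcribed base, with a single CCAAT box before it. In CENPA the CHR lies at positions -18 to -13, close to the start. Among the genes with an entry, CENPA had the highest difference, 0.14 ± 0.27, and CDC25C the lowest, -1.38 ± 0.32. TPX2, whose difference was higher than that of CENPA, had no entry. ASPM carries its CHR on the opposite strand at positions -113 to -108, among 4 CCAAT boxes.

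The CHR whose first base lies nearest an annotated start is compared below for all 14 genes that had one, on the strand that reads TTTGAA (capitals), with up to 8 bases on each side.
CCNB2, chr15:59105109-59105130, plus strand: acgcggtaTTTGAAtcctggaa
CDC25C, chr5:138331821-138331842, minus strand: gcggaaggTTTGAAtggtcaac
CDK1, chr10:60778479-60778500, minus strand: gagccagcTTTGAAgccaagtg
PLK1, chr16:23678852-23678873, plus strand: gcgccgcgTTTGAAttcgggga
ASPM, chr1:197146769-197146790, plus strand: gcgcttcaTTTGAAtgattgca
HMMR, chr5:163460602-163460623, plus strand: gatttgaaTTTGAAaccggtag
KIF11, chr10:92593094-92593115, minus strand: cgcctcaaTTTGAAaaagagac
NUSAP1, chr15:41332886-41332907, plus strand: gccagggaTTTGAAccgcgctg
PRC1, chr15:90994542-90994563, minus strand: tggcgcggTTTGAAattttgcg
CENPA, chr2:26786030-26786051, plus strand: gcgagcgaTTTGAAcgcgagcg
CENPF, chr1:214603227-214603244, plus strand: gcgggcagTTTGAAttag
CDC20, chr1:43358908-43358929, plus strand: ggttggatTTTGAAggagccaa
MKI67, chr10:128126439-128126460, minus strand: cgttttcgTTTGAAttgggcgg
TOP2A, chr17:40418034-40418055, plus strand: ggggtttgTTTGAAtaaaccaa
In 5 genes (CDC25C, CCNB2, PLK1, MKI67 and KIF11) the CHR started between positions -30 and -28. CDK1, whose CHR shown lies at positions 10 to 15 on the opposite strand, had another at -13 to -8 on its own strand, whose last base lies nearer the start. HMMR carried TTTGAA in tandem, the upstream copy standing in the flank shown. The median difference between genotypes was -0.61 over the 14 genes with TTTGAA and -0.64 over the 8 without it. Those 8 included BUB1 and CDC25B, which carried the variant TTCGAA. These matches describe sequence only.

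Across the 27 genes, expression was lower in the BRCA2 knockout for 24 and higher for 3. The median log2 difference was -0.55, against 0.07 over all 13139 genes, and 88.9% of the 27 genes had a difference below 0, against 45.3% of all genes and 48.7% of all probe sets. Among genes with a mean of 8 or more, 42.2% had a difference below 0, with a median of 0.105. Among them 0 of 27 had an adjusted p under 0.05 in limma's moderated test, against 0.570% of all probe sets (0.154% lower and 0.416% higher), and the smallest adjusted p was 0.159. At an unadjusted p under 0.05 there were 4 genes lower and 0 higher, against 5.28% and 6.92% of all probe sets. The 3 knockout arrays all lay below the 3 wild-type arrays for 6 genes, against 7.70% of all probe sets, and all above them for TPX2 alone, against 12.0%.

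**Figure D1:**
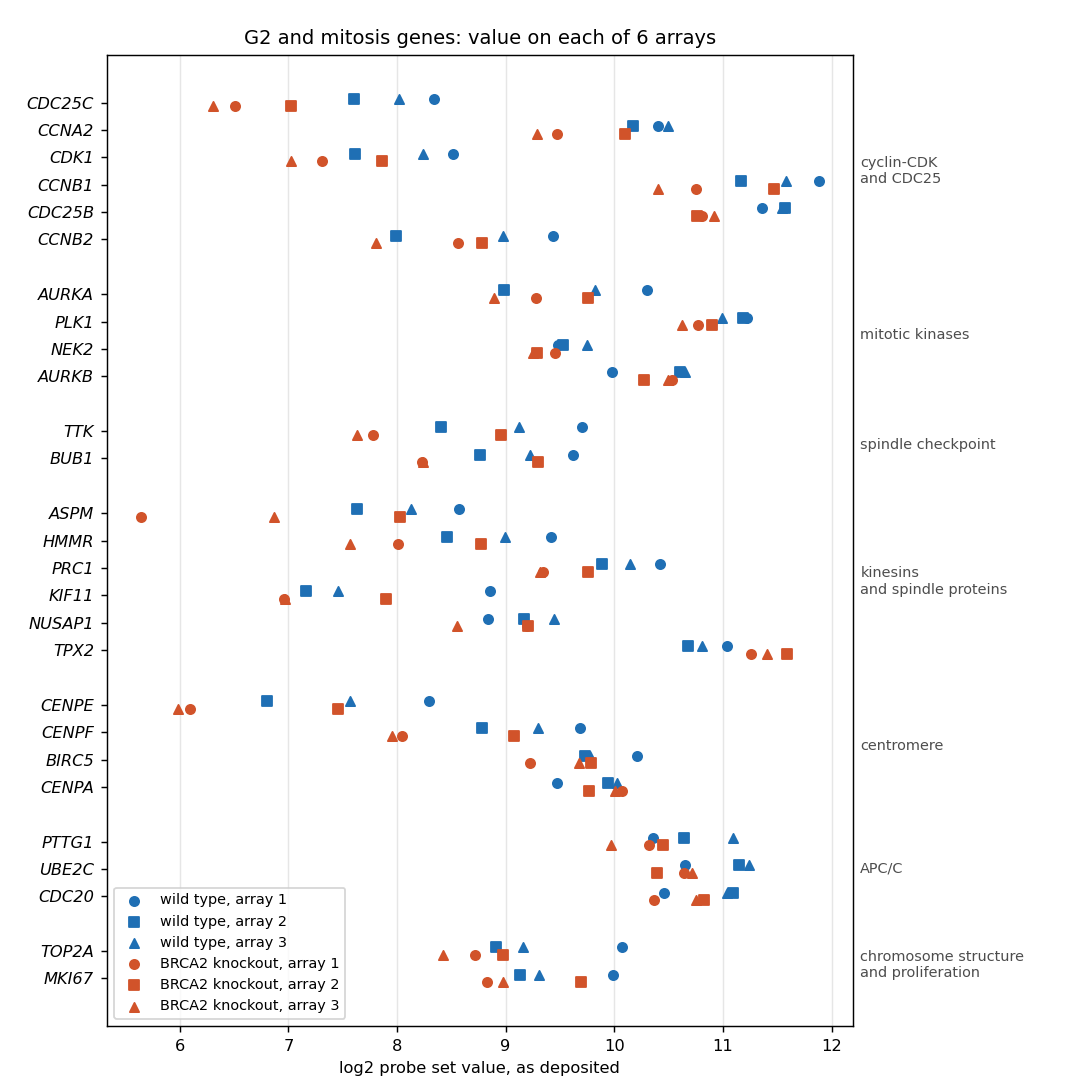
Log2 probe set value (x axis) of each of the 27 genes (rows, grouped by role) on 3 wild-type arrays (blue) and 3 BRCA2 knockout arrays (orange), with marker shape giving the array number. CDC25C runs from 7.61 to 8.34 in wild type and from 6.30 to 7.02 in knockout without overlap, while TPX2 is the only gene with all knockout arrays above all wild-type arrays.

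The cyclin, CDK1 and CDC25 genes were lower in the knockout for 6 of 6 members, with a median difference of -0.70. CDC25C, which encodes the phosphatase that activates CDK1 at mitotic entry, was at 8.34, 7.61 and 8.02 in wild type and at 6.51, 7.02 and 6.30 in the knockout (here and below in the order of arrays 1, 2 and 3). The genotypes did not overlap and each spread over less than their difference. Its difference was -1.38 ± 0.32 (SE), from 7.99 ± 0.37 to 6.61 ± 0.37 (SD, n = 3 arrays per genotype), which is 2.59-fold lower in the knockout (adjusted p = 0.159 in limma). CDC25B, a related phosphatase that acts first on CDK1 at the centrosome, was at 11.36, 11.57 and 11.54 in wild type and at 10.81, 10.76 and 10.91 in knockout. The arrays did not overlap, and CDC25B had the smallest standard error of the 27 genes, with a difference of -0.66 ± 0.24 (1.58-fold lower, adjusted p = 0.326).

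CCNA2, the cyclin A gene of S phase and G2, was at 10.40, 10.18 and 10.49 in wild type and at 9.47, 10.10 and 9.28 in knockout. Knockout array 2 came just below wild-type array 2, and the difference was -0.74 ± 0.30 (adjusted p = 0.391). CDK1, the kinase that the mitotic cyclins activate, was at 8.51, 7.61 and 8.24 in wild type and at 7.31, 7.86 and 7.03 in knockout, a difference of -0.72 ± 0.35 (adjusted p = 0.475). Its partner gene CCNB1, the main mitotic cyclin, was at 11.88, 11.17 and 11.58 against 10.75, 11.47 and 10.40 (difference -0.67 ± 0.36, adjusted p = 0.514). In both CDK1 and CCNB1 knockout array 2 lay above wild-type array 2 and below the other wild-type arrays. CCNB2, the second B-type cyclin gene, had the smallest difference of this group, -0.42 ± 0.45 (adjusted p = 0.748). Its values of 9.43, 7.99 and 8.98 in wild type and 8.56, 8.78 and 7.81 in knockout overlapped widely, with wild-type array 2 below 2 of the 3 knockout arrays.

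Among the mitotic kinases, 3 of 4 genes were lower and the median difference was -0.31, smaller than in the cyclin group, though the difference between the groups was not tested. AURKA, the Aurora kinase of the centrosome and spindle poles, was at 10.31, 8.99 and 9.83 in wild type and at 9.28, 9.76 and 8.89 in knockout, a difference of -0.40 ± 0.41 (adjusted p = 0.735). Values within each genotype spread further than the genotypes differed. PLK1, the polo-like kinase that phosphorylates CDC25C and cyclin B among its many substrates, was at 11.22, 11.19 and 10.99 against 10.77, 10.90 and 10.62, without overlap (difference -0.37 ± 0.24, adjusted p = 0.584). NEK2, a kinase that separates centrosomes, was at 9.48, 9.53 and 9.75 against 9.45, 9.29 and 9.25 (difference -0.26 ± 0.24, adjusted p = 0.708). The genotypes did not overlap for NEK2 either, though knockout array 1 lay close below wild-type array 1. AURKB, the Aurora kinase of the chromosomal passenger complex at centromeres, was at 9.98, 10.61 and 10.65 in wild type and at 10.53, 10.27 and 10.50 in knockout. Its difference of 0.02 ± 0.29 (adjusted p = 0.983) did not hold its sign, at -0.20 without wild-type array 1 and -0.004 after median centring.

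The spindle checkpoint was represented by TTK and BUB1, and both were lower with a median of -0.79. TTK encodes MPS1, the kinase that starts checkpoint signalling at unattached kinetochores, and was at 9.70, 8.41 and 9.13 in wild type and at 7.78, 8.95 and 7.63 in knockout. Its difference of -0.96 ± 0.48 (1.94-fold lower, adjusted p = 0.486) was set against a knockout array 2 that lay above wild-type array 2. BUB1, which recruits further checkpoint proteins to kinetochores, was at 9.62, 8.77 and 9.22 against 8.23, 9.30 and 8.24 (difference -0.61 ± 0.40, adjusted p = 0.579). Knockout arrays 1 and 3 lay below all wild-type arrays for both genes, and knockout array 2 lay among them.

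**Figure D2:**
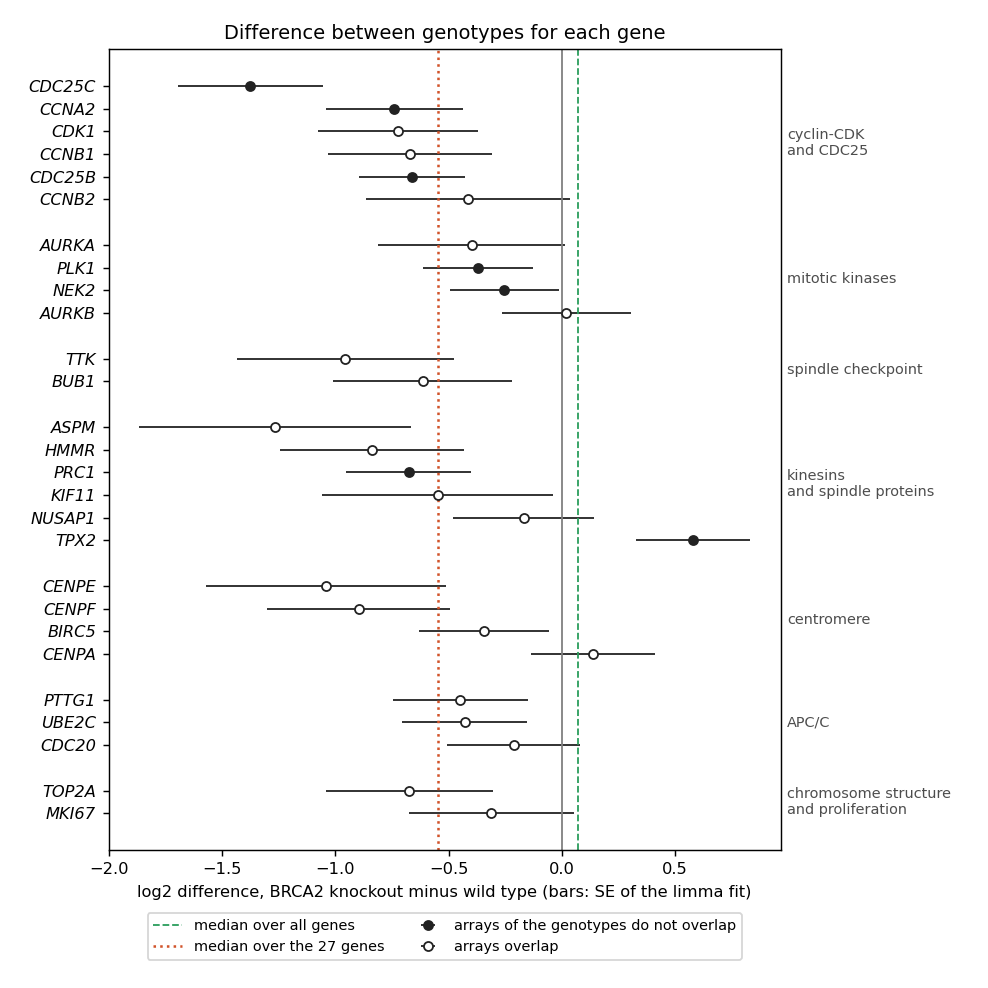
Log2 difference of BRCA2 knockout minus wild type (x axis, bars are the SE of the limma fit over 3 arrays per genotype) for each of the 27 genes, grouped by role, with filled points where no knockout array fell within the wild-type values. The points lie left of 0 for 24 genes, and the dotted line marks their median of -0.55, left of the dashed line at the median over all genes, 0.07.

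Kinesin and spindle protein genes were lower for 5 of 6 members, with a median of -0.61. ASPM, a spindle pole protein gene mutated in microcephaly, had the second lowest difference, -1.27 ± 0.60 (2.40-fold lower, adjusted p = 0.460), and the largest standard error. It was at 8.57, 7.64 and 8.13 in wild type and at 5.64, 8.03 and 6.87 in knockout, so that the 3 knockout arrays spread over more than the genotypes differed and array 2 reached the wild-type range. HMMR, which encodes a hyaluronan receptor that also binds spindle microtubules, was at 9.42, 8.46 and 8.99 against 8.01, 8.77 and 7.57 (difference -0.84 ± 0.41, adjusted p = 0.470). PRC1, the protein that bundles antiparallel microtubules in the spindle midzone, was at 10.42, 9.89 and 10.14 against 9.34, 9.76 and 9.32. Its arrays did not overlap, and the difference was -0.68 ± 0.28 (1.60-fold lower, adjusted p = 0.392).

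KIF11, the gene of the kinesin that pushes spindle poles apart, was at 8.85, 7.16 and 7.46 in wild type and at 6.96, 7.90 and 6.97 in knockout. Wild-type array 1 stood 1.54 above the mean of the other wild-type arrays, the widest such gap among the 27 genes, and the difference of -0.55 ± 0.51 (adjusted p = 0.704) was -0.03 without that array. NUSAP1, a microtubule-stabilising protein gene, had the smallest difference of this group, -0.17 ± 0.31 (adjusted p = 0.856), with values of 8.84, 9.17 and 9.45 against 9.20, 9.20 and 8.55. Without knockout array 3 its difference was 0.05.

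TPX2, the microtubule-associated protein that activates AURKA on the spindle, went the other way. Its values of 11.03, 10.68 and 10.80 in wild type and 11.26, 11.59 and 11.41 in knockout did not overlap, and the difference was 0.58 ± 0.25 (1.49-fold higher, adjusted p = 0.419). It stayed positive, between 0.49 and 0.68, under all 18 alternatives of processing. AURKA, the kinase it activates, had a difference of -0.40 over the same arrays.

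Of the centromere genes, 3 of 4 were lower, with a median of -0.62. CENPE, the kinesin-like motor that carries chromosomes to the spindle equator, was at 8.29, 6.80 and 7.57 in wild type and at 6.09, 7.46 and 5.99 in knockout, a difference of -1.04 ± 0.53 (2.06-fold lower, adjusted p = 0.494). CENPF, a large kinetochore protein of G2 and M, was at 9.69, 8.78 and 9.29 against 8.04, 9.08 and 7.95 (difference -0.90 ± 0.41, adjusted p = 0.439). For both genes knockout arrays 1 and 3 lay below all wild-type arrays, while knockout array 2 did not. BIRC5, the survivin gene, whose product brings AURKB to centromeres, was at 10.21, 9.73 and 9.78 against 9.22, 9.79 and 9.68 (difference -0.34 ± 0.29, adjusted p = 0.672). Its other probe set, of lower mean, had a difference of 0.36 ± 0.41, so that the probe sets of BIRC5 disagreed in direction. CENPA, the histone H3 variant that marks centromeres, was at 9.47, 9.94 and 10.02 in wild type and at 10.07, 9.77 and 10.01 in knockout. Its difference of 0.14 ± 0.27 (adjusted p = 0.866) was within the spread of the wild-type arrays, and was -0.04 (adjusted p = 0.984) without wild-type array 1.

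The genes acting at the APC/C were lower for 3 of 3 members, with a median of -0.43. PTTG1, the securin gene, whose product restrains separase until the APC/C marks it for destruction, was at 10.36, 10.64 and 11.09 in wild type and at 10.32, 10.45 and 9.97 in knockout (difference -0.45 ± 0.30, adjusted p = 0.590). UBE2C, the ubiquitin-conjugating enzyme that works with the APC/C, was at 10.65, 11.15 and 11.24 against 10.65, 10.39 and 10.72 (difference -0.43 ± 0.28, adjusted p = 0.576). CDC20, the mitotic activator of the APC/C, was at 10.46, 11.09 and 11.04 against 10.37, 10.82 and 10.75, with a difference of -0.21 ± 0.29 (adjusted p = 0.806). All 3 had their lowest wild-type value on array 1, and the genotypes overlapped only through that array. TOP2A, the topoisomerase that untangles sister chromatids, was at 10.07, 8.91 and 9.16 against 8.72, 8.98 and 8.42 (difference -0.67 ± 0.37, adjusted p = 0.521). MKI67, the gene of the proliferation marker Ki-67, was at 9.99, 9.13 and 9.31 against 8.83, 9.69 and 8.97 (difference -0.31 ± 0.36, adjusted p = 0.767). Knockout array 2 was above wild-type array 2 for both.

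Several of these differences rested on 1 array. Without wild-type array 1 the difference of MKI67 was -0.05, that of AURKA -0.10, that of CCNB2 -0.10, that of KIF11 -0.03 and that of TOP2A -0.33, and 12 of the 27 genes moved by over 1.5 times or reversed. Leaving out another single array moved 5 to 7 genes as far, and without knockout array 1 ASPM was at -0.66. CDC25C, CCNA2, CDK1, CDC25B, PLK1, NEK2, TTK, HMMR, PRC1, TPX2, CENPF and UBE2C moved by less than 1.5 times whichever array was left out.

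The list also varied between arrays of a genotype. Its mean over the 27 genes was 9.87, 9.36 and 9.70 in wild type, and in the knockout it was 8.97, 9.49 and 8.89. Knockout array 2 thus lay above wild-type array 2, while the other knockout arrays lay below every wild-type array. The median over the 27 genes was 9.98, 9.17 and 9.75 in wild type and 9.22, 9.69 and 8.97 in knockout, and by this measure knockout array 1 also lay above wild-type array 2. Taken against the median of all probe sets on the same array, the mean was 2.16, 2.01 and 2.22 above it in wild type and 1.56, 1.69 and 1.48 above it in knockout, and the genotypes did not overlap. With the median over the 27 genes in place of their mean, the distance was 2.27, 1.81 and 2.26 in wild type and 1.81, 1.89 and 1.56 in knockout, and knockout array 2 lay above wild-type array 2. Wild-type array 1 was the highest of its genotype for 18 of the 27 genes (49.5% of all probe sets), and knockout array 2 for 22 (52.8%). Both held for 18 genes, where 39.1% of probe sets had this order. The 18 genes ranged from PLK1, whose 6 arrays spanned 0.60, to ASPM, whose arrays spanned 2.93. In CDC25B, AURKB, NEK2, CENPA and UBE2C neither array was the highest of its genotype, and their 6 arrays spanned 0.50 to 0.85. What set these arrays apart was not tested.

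**Figure D3:**
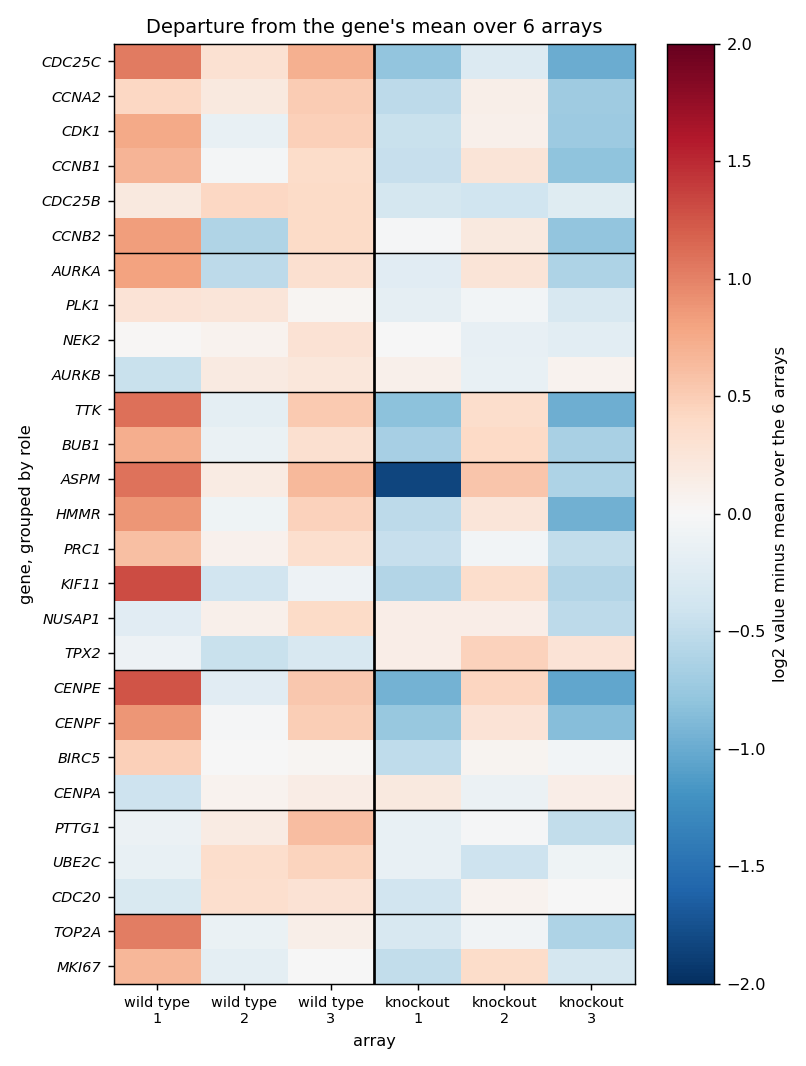
Log2 value of each gene (rows, grouped by role) minus its own mean over the 6 arrays (columns, wild type left of the line and BRCA2 knockout right of it), from blue (below the mean) to red (above it). Wild-type array 1 and knockout array 2 are the reddest columns of their genotypes. In 8 genes (CDC25B, AURKB, NEK2, NUSAP1, CENPA and the 3 APC/C genes) wild-type array 1 is instead the lowest of its genotype.

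The comparison was therefore also made within each of these sets of arrays, a choice made after the values had been seen. Between knockout array 2 and wild-type array 1, the arrays of highest median, 21 of 27 genes were lower in the knockout (44.4% of all probe sets) and the median difference was -0.42. Between knockout arrays 1 and 3 and wild-type arrays 2 and 3, 25 of 27 were lower (50.9% of all probe sets) and the median was -0.51. In both sets 21 genes were lower, as were 30.5% of all genes, and TPX2 and CENPA were higher in both. CDC25C had nearly the same difference in each, -1.32 and -1.40, as had CDC25B (-0.60 and -0.70) and PRC1 (-0.66 and -0.69). ASPM differed between the sets, at -0.54 and -1.63, as did TOP2A, at -1.09 and -0.46. Opposite signs were found in the sets for CDC20 (0.37 and -0.50), NUSAP1 (0.37 and -0.44), PTTG1 (0.09 and -0.72) and AURKB (0.29 and -0.12). With these sets as a block, CDC25C was the only gene of the 27 under the threshold (-1.38 ± 0.21, adjusted p = 0.0491 in limma), where 0.555% of probe sets were called lower and 0.946% higher.

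**Figure D4:**
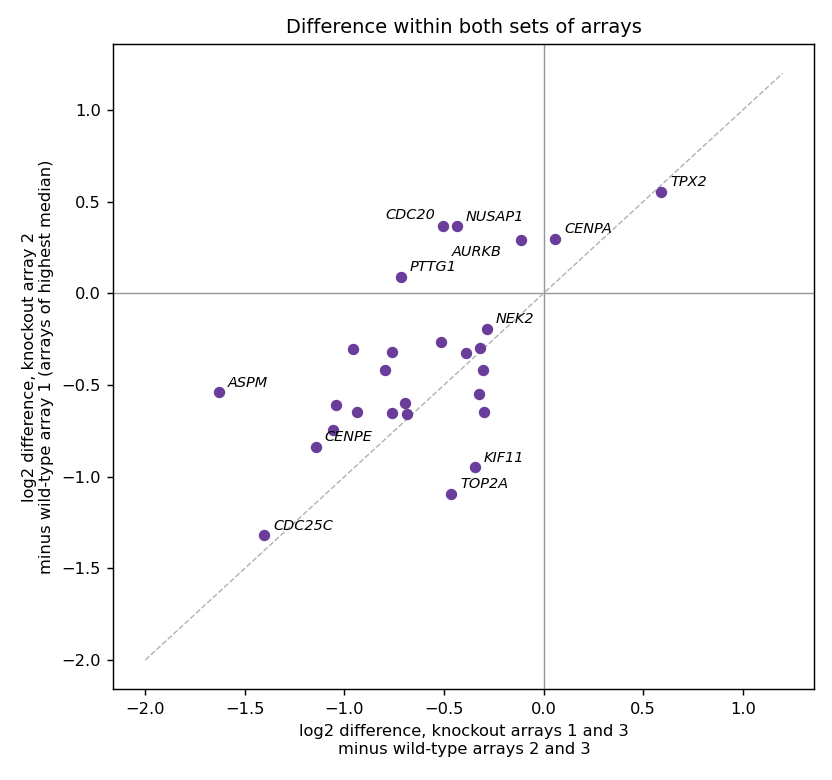
Log2 difference between knockout array 2 and wild-type array 1 (y axis) against that between the means of knockout arrays 1 and 3 and of wild-type arrays 2 and 3 (x axis), 1 point per gene, with equal differences on the dashed line. In the lower left are 21 genes, with CDC25C near the line at -1.40 and -1.32, and TPX2 and CENPA are alone in the upper right.

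Other genes of the same processes were taken from 6 lists, of which 93 of 126 genes were measured. Over these, 72 were lower and 21 higher, with a median of -0.32, and none passed an adjusted p of 0.05 in limma. At an unadjusted p under 0.05, 7 of 93 were lower and 2 of 93 higher, where 5.28% and 6.92% of all probe sets were. The lists differed in how they divided. Other kinesin, spindle and cytokinesis genes were lower for 16 of 16 members (median -0.47), led by the cytokinesis kinesin KIF14. Between knockout array 2 and wild-type array 1 alone, 12 of these 16 were lower. KIF14 was at 9.04, 7.62 and 8.28 in wild type and at 6.14, 8.04 and 6.08 in knockout (difference -1.56 ± 0.62, adjusted p = 0.376), with knockout array 2 again within the wild-type range. Other centromere and kinetochore genes were lower for 21 of 24 (median -0.47). Of these CENPQ, a gene of the constitutive centromere complex, was at 6.75, 5.65 and 6.24 against 4.70, 5.51 and 4.34, without overlap (difference -1.37 ± 0.42, adjusted p = 0.258).

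Condensin and cohesin genes were lower for 10 of 13 (median -0.23), and the cohesin regulator gene PDS5B had the lowest difference of all 6 lists. It was at 7.61, 6.62 and 7.09 in wild type and at 4.87, 6.38 and 4.55 in knockout, without overlap (difference -1.84 ± 0.53, 3.58-fold lower, adjusted p = 0.232). Other APC/C genes divided into 9 lower and 4 higher (median -0.23), with the separase gene ESPL1 at -0.83 ± 0.46 (adjusted p = 0.524). Other spindle checkpoint genes divided into 7 lower and 3 higher (median -0.18), with MAD2L1, the checkpoint protein that binds CDC20, at -0.96 ± 0.43 (adjusted p = 0.431). No list but the kinesin list lay on 1 side of 0.

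The regulators of mitotic entry and transcription stood closest to no shift, with 9 of 17 lower and a median of -0.006. LIN9, a MuvB subunit, had the lowest difference, -1.22 ± 0.61 (adjusted p = 0.487), from 7.50, 6.07 and 6.75 in wild type to 5.63, 6.61 and 4.41 in knockout. LIN54, the MuvB subunit that contacts the CHR, lay the other way, at 8.30, 7.98 and 8.56 against 8.98, 9.27 and 8.63 without overlap (difference 0.68 ± 0.29, adjusted p = 0.417). FOXM1, the transcription factor that drives G2 and mitosis genes, was also higher on all knockout arrays, at 9.99, 9.88 and 9.85 against 10.20, 10.68 and 10.39 (difference 0.52 ± 0.25, adjusted p = 0.475). MYBL2, its partner at the CHR, had a difference of 0.27 ± 0.28 (adjusted p = 0.726). E2F4, the repressive E2F factor of the DREAM complex, had the smallest p of the 6 lists, at 9.48, 9.85 and 9.85 in wild type and at 8.54, 8.57 and 8.53 in knockout. The knockout arrays lay close together and below all wild-type arrays, and the difference was -1.18 ± 0.25 (2.26-fold lower, adjusted p = 0.127). CDKN3 had the highest difference of the 6 lists, 0.74 ± 0.29 (adjusted p = 0.378 in limma), without overlap. Of the 17 regulators, 5 were higher without overlap (LIN54, FOXM1, E2F1, PKMYT1 and CDKN3) and 1 lower (E2F4). Over all probe sets the shares were 12.0% and 7.70%. Apart from LIN9, the regulators named here were chosen after their values had been seen.

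**Figure D5:**
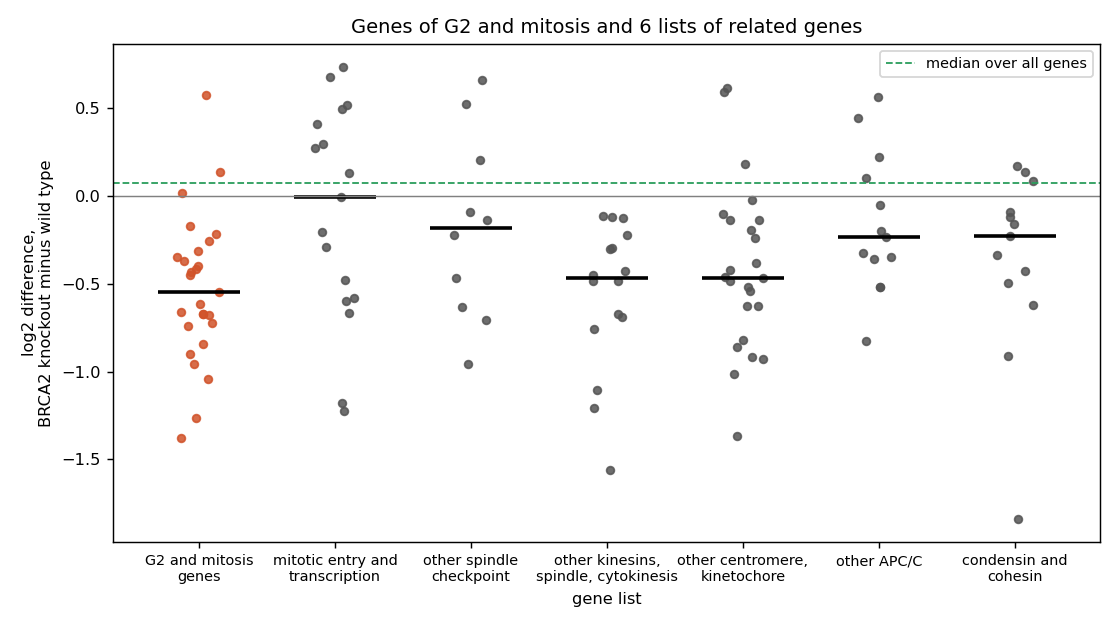
Log2 difference of BRCA2 knockout minus wild type (y axis) for each measured gene of the G2 and mitosis list (27 genes, orange) and of 6 lists of related genes (93 genes, grey), with black bars at each list's median and a dashed line at the median over all genes, 0.07. The medians run from -0.55 in the G2 and mitosis list to -0.006 in the regulators of mitotic entry and transcription, and the 16 genes of the kinesin, spindle and cytokinesis list all lie below 0.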

How the data were processed

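The authors' deposited values are log2 probe set values from whole-transcript arrays hybridised with ribosomal-RNA-depleted total RNA, per the labels' protocols. RMA, R 2.11.1 and hg18 are named in the submitters' processing notes, without their roles. Values on the 6 arrays lie in the range of a log2 scale. All arrays were used, and their number limits the precision.

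Of 19458 probe sets, 13301 had 1 gene symbol, 2044 several and 4113 none. Symbols were updated by gene identifier through RefSeq (GRCh38.p14, 13280 matched), which also gave the promoters. Values were fitted as deposited with limma 3.58.1 (lmFit, eBayes, R 4.3.3), genotype as the single factor, with Benjamini-Hochberg adjustment over every probe set. The fit was run on simulated data with independent noise on each probe set and array. Departures shared between arrays, as in these data, were not simulated. Alternatives covered scaling, filtering, a floor, variance models, array weights, a replicate block, arrays left out and the probe set of a gene.

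The members, lists, tests and alternatives were chosen with earlier results of these data known. All genes of the list were described. In the other lists, called genes or else the one of largest difference were named, with exceptions stated. Promoters were those of the lowest 2 and the highest 1 difference with an entry.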

Additional observations from a re-analysis of the deposited data

How the results depend on the processing

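Of the 27 genes, 23 kept their direction under all 18 alternatives. AURKB turned to -0.004 with median centring, -0.06 with quantile normalization, -0.13 with array weights and -0.12 without wild-type array 1 and knockout array 2 together, and ran from -0.20 to 0.14 with 1 array left out. With 1 array left out CENPA ran from -0.035 to 0.243 and NUSAP1 from -0.326 to 0.048, and BIRC5 was at 0.008 as the mean of its probe sets. The count of genes lower was 23 to 26 and the median difference -0.81 to -0.42 over all alternatives. CDC25C was called with array weights (adjusted p = 0.0243 in limma), where 324 of all 19458 probe sets were called lower and 454 higher. It was also called with the block for the arrays of highest median (adjusted p = 0.0491 in limma), where 0.555% were called lower and 0.946% higher. That block was added after the data were seen. Thus 1 of the 27 genes was called in each, and 0 in the other 16. Beside these shares, 1 call among 27 genes is not read as a result. The adjusted p of CDC25C ran from 0.0243 to 0.649. The genes without overlap that were lower numbered 12 with median centring (10.8% of all probe sets), 11 with quantile normalization (10.2%), 22 without wild-type array 1 and knockout array 2 together (24.1%), and 6 to 19 with 1 array left out, against 6 and 7.70% as deposited. Leaving out wild-type array 1 gave 10 genes (10.1% of all probe sets), leaving out wild-type array 2 gave 16 (13.6%) and leaving out knockout array 2 gave 19 (21.5%), and fewer arrays make no overlap more common.

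Over all probe sets, calls numbered 111 as deposited, 175 with median centring, 174 with quantile normalization, 184 without the dimmest 30% of probe sets, 169 with values under 4 set to 4, 396 with a variance trend, 778 with array weights, 292 with the block for the arrays of highest median, 24 to 63 with 1 array left out and 7 without both arrays of highest median. With the replicate block there were 3 calls, none among the 27 genes (median -0.55). The labels do not say whether arrays of the same number were handled together. Deviations of same-numbered arrays from their genotype means correlated at -0.24, -0.43 and 0.06, and those of wild-type array 1 and knockout array 2 at 0.49. Deviations within a genotype sum to 0, so these correlations depend on each other and cannot decide whether the arrays were paired.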
